A study of Mus musculus with 29 samples.

Results

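Gene expression in the hypothalamus of 6-month-old mice (3 libraries, replicates 32, 33 and 34) was compared with that of 5-week-old mice (4 libraries, replicates 1 to 4). These 7 libraries were taken by their age labels from the 29 of an age series that runs from postnatal day 5 (P5) to 24 months. All mice were C57BL/6, wild type (WT) and male by their labels, housed singly in 12 h of light and 12 h of dark with free food and water. The hypothalamus was taken about 6 h after lights on (ZT6) and kept in RNAlater, and total RNA was read by paired-end sequencing. The 5-week libraries held 26219361 to 28300763 counts in genes and the 6-month libraries 29806510 to 39783779. Several titles of other ages hold thal or tha beside the hypothalamus label. In the 7 libraries, thalamic markers (18 genes) summed to 1330 to 2760 CPM (gene counts relative to library size, as edgeR scales them), neuropeptide genes (34) to 910 to 1680 and hypothalamic transcription factors (31) to 251 to 406. The comparison spans the step from the juvenile, pubertal animal to the mature adult.

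The hypothalamus joins neurons that make peptide hormones to fibre tracts wrapped in myelin, the lipid-rich sheath laid down by oligodendrocytes. These cells arise from dividing precursors through a short-lived, newly formed stage before they make myelin. Building the sheath needs cholesterol, which brain cells make for themselves, since little of it crosses from the blood. Microglia, the resident immune cells, and astrocytes share the tissue with them.

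Of 16916 genes tested, 2193 (13%) differed between 6 months and 5 weeks at an adjusted p below 0.05, by edgeR's quasi-likelihood test with Benjamini-Hochberg adjustment. Of these, 774 (4.58% of genes tested) were higher and 1419 (8.39%) lower at 6 months. The changes were mostly small: 123 genes (0.727%) were higher and 77 (0.455%) lower by at least 2-fold. With libraries scaled to their totals in place of trimmed means (TMM), the split was 995 higher and 1157 lower. The falls took in genes of newly formed and myelinating oligodendrocytes, of cholesterol synthesis and of growing neurons. The rises took in a long RNA of the nucleus, an alarm cytokine of oligodendrocytes and a complement protein. Of the neuropeptide genes 1 of 33 was called, of the clock genes 1 of 20 and of the puberty genes 3 of 24, the last near the 13% of all genes. Whether called or not, 2412 of the 16916 genes were higher and 2785 lower at 6 months without overlap between the libraries of the ages.

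The library groups differed in more than age. The titles of the 5-week libraries begin with th and those of the 6-month libraries with R, and every juvenile library of the weeks-old ages has the first form. Rn7s1 and Rn7s2, genes of the 7SL RNA of the signal recognition particle, were at 17.8 to 29.6 CPM at 5 weeks and at 0.175 to 1.78 at 6 months. The 4-week libraries fell on both sides, with Rn7s2 at 2.1 and 1.7 CPM in replicates 1 and 2 and at 21.7 and 28.9 in replicates 3 and 4. Reads set aside for low mapping quality made up 9.31 to 11.2% of each 5-week library but 5.54 to 5.97% of each 6-month one. Library set and age cannot be told apart within these 7 libraries. Libraries were put in 2 sets by Rn7s2 above or below 10 CPM, so the fall of these RNAs is no result. A fit with the set as a term, which the 4-week libraries alone inform, called 426 genes (2.52%; 0.863% higher, 1.66% lower), of which 339 were among the 2193 with the same sign. The 6-month libraries differed in 895 genes that were higher (5.29%) and 1297 that were lower (7.67%) from 4-week replicates 1 and 2, and in 867 (5.13%) and 1379 (8.15%) from replicates 3 and 4. Without 6-month replicate 34, which carries markers of another region, 1540 genes (9.11%) were called, 3.05% higher and 6.06% lower. Between the pairs of 4-week libraries themselves, 33 of 16916 genes were called. Calls given below are those without the set term unless it is named, and many of them end with it. A lost call need not mean a smaller change. With the term Nptxr changed by -1.34 (-1.24 without it) and Mfsd2a by -0.16 (-0.60 without it), and neither was called. No gene was called in the main comparison when the sparse 24-month library left out here was kept in the fit.

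**Figure D1:**
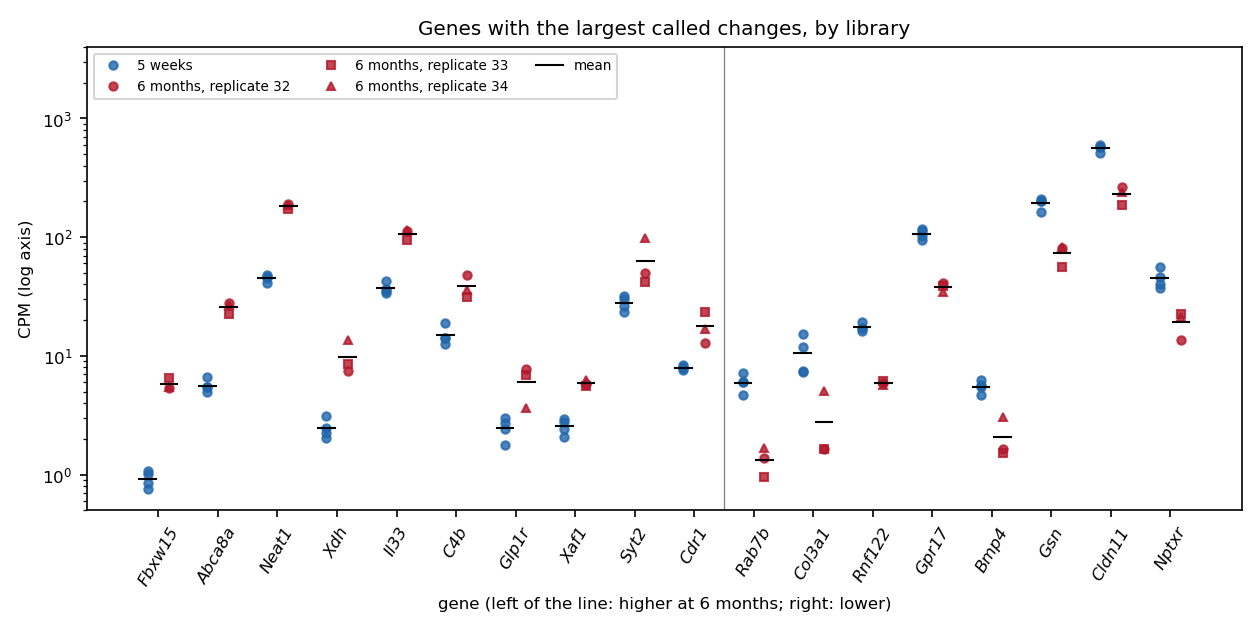
CPM (log axis) of the genes with the largest called changes among those at 5 CPM or more (10 higher, 8 lower, Rn7s1 and Rn7s2 left out) in each of the 4 libraries of 5 weeks (blue) and the 3 of 6 months (red, with a symbol for each replicate); black bars are means. The genes were chosen for libraries that do not overlap between the ages, passing over Gm-number and Rik symbols, and replicate 34 stands above the other 6-month libraries for Syt2, Xdh, Col3a1 and Bmp4.

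Part of the genes of newly formed oligodendrocytes fell. Gpr17, a receptor made by precursors as they commit to become oligodendrocytes, was at 94.6, 102, 113 and 117 CPM in the 5-week libraries and at 41, 38.5 and 34.7 at 6 months. The change was -1.49 ± 0.13 (log2 fold change ± SE, 6 months minus 5 weeks, adjusted p = 2.16e-07 by edgeR). Rnf122 (chr8:31111820-31131482), which encodes a RING-finger protein, had the smallest p of all genes tested: 16.3 to 19.1 CPM against 5.66 to 6.19, a change of -1.55 ± 0.11 (adjusted p = 1.24e-08). Bmp4 (chr14:46383520-46390669), a secreted growth factor that newly formed oligodendrocytes make, went from 4.67 to 6.2 CPM to 1.65, 1.51 and 3.04. Its change was -1.42 ± 0.22 (adjusted p = 0.000164), and of the 6-month libraries replicate 34 lay nearest to the 5-week values. Fewer cells of a type and less RNA per cell cannot be told apart in these tissue samples, here or below.

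Of the 22 genes listed for oligodendrocyte precursors and newly formed oligodendrocytes, 9 fell (8.39% over all genes), none rose and 13 were not called. The median log2 change was -0.22 against 0.01 over all genes tested. Besides the 3 above, Fyn, a kinase of early myelin formation, fell by 0.54 and Enpp6, a phosphodiesterase of newly formed cells, by 0.83 on the log2 scale. The lineage factors Olig1, Olig2 and Sox10 fell by 0.56, 0.37 and 0.44 on that scale. Markers of the precursors themselves did not pass the test: Pdgfra, their growth factor receptor, was at 71.9 to 85.4 CPM at 5 weeks and 66.5 to 75.8 at 6 months (-0.14 ± 0.09, adjusted p = 0.287), and Cspg4, their NG2 proteoglycan, changed by -0.12 ± 0.11 (adjusted p = 0.505). Bcas1, also on the list, was not called, and its log2 change lay between 0.05 and 0.29 over the 25 alternative settings. With the library set as a term, 5 of the 9 genes that fell were called: Rnf122, Gpr17, Fyn, Bmp4 and Olig1. Without 6-month replicate 34 the count was again 9.

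Among the 26 genes of myelin and mature oligodendrocytes, 11 fell and 3 rose (8.39% and 4.58% over all genes), with a median log2 change of -0.31. Cldn11 (chr3:31149920-31164324), the tight-junction claudin of the myelin sheath, was at 507, 601, 570 and 571 CPM at 5 weeks and at 266, 187 and 239 at 6 months. It changed by -1.29 ± 0.15 (adjusted p = 6.09e-06). Mal and Mog, a lipid-raft protein and a surface glycoprotein of myelin, fell by 0.90 and 0.82 on the log2 scale, Tspan2 and Cnp by 0.80 and 0.75. Mbp, the myelin basic protein, was at 6340 to 8440 CPM at 5 weeks and at 6010, 4170 and 6180 at 6 months, a change of -0.47 ± 0.18 that did not pass (adjusted p = 0.0818). The sum of the list was 16400 to 21500 CPM at 5 weeks and 10600 to 15300 at 6 months, with replicate 33 the lowest.

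The 3 myelin-list genes that rose were Il33, Hapln2 and Anln. Il33 (chr19:29925114-29960718), an alarm cytokine kept in the nucleus of oligodendrocytes and astrocytes, was at 34.1, 42.6, 36.6 and 35.5 CPM at 5 weeks and at 113, 94.1 and 114 at 6 months. The change was 1.52 ± 0.16 (adjusted p = 2.14e-06). Hapln2, a link protein at nodes of Ranvier, rose by 0.57 ± 0.12 and Anln, a septin-binding protein of myelin, by 0.67 ± 0.16 (adjusted p = 0.00327 and 0.00737). With the library set as a term, 2 members of the list rose and 7 fell, and Hapln2 was not called (adjusted p = 0.087). Gsn (chr2:35256380-35307892), gelsolin, an actin-severing protein abundant in oligodendrocytes and on no list here, fell from 163 to 210 CPM to 56.4 to 82.8 (-1.41 ± 0.18, adjusted p = 2.75e-05). Rab7b (chr1:131688695-131715439), a small GTPase of endosome traffic, went from 4.67 to 7.1 CPM to 1.38, 0.955 and 1.67 (-2.16 ± 0.26, adjusted p = 9.92e-06).

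Cholesterol genes moved together. Of 24 genes of cholesterol synthesis and uptake, 17 fell (8.39% over all genes), none rose and 7 were not called, with a median log2 change of -0.30. The summed level was 2200, 2290, 2300 and 2270 CPM in the 5-week libraries and 1570, 1810 and 1930 at 6 months, without overlap. Without 6-month replicate 34 the count was again 17, 18 members fell against 4-week replicates 1 and 2, and 15 against replicates 3 and 4. With the library set as a term 8 were called lower.

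Along the pathway, Hmgcs1 (chr13:119690379-119708260), an early enzyme of the mevalonate pathway, was at 373 to 437 CPM at 5 weeks and at 246, 290 and 309 at 6 months (-0.53 ± 0.11, adjusted p = 0.00296). The mevalonate enzymes Mvk and Mvd fell by 0.46 and 0.63 on the log2 scale, and Idi1, Fdps and Fdft1, which build squalene, by 0.39, 0.27 and 0.22. Cyp51 (chr5:4081145-4104746), which removes a methyl group from lanosterol, was at 126, 141, 135 and 135 CPM at 5 weeks and at 80, 97.7 and 99 at 6 months. It changed by -0.54 ± 0.08 (adjusted p = 0.000178), the smallest p of the list. Dhcr7, a late reductase of the pathway, fell by 0.36. Srebf2 (chr15:82147181-82205379), the transcription factor that turns these genes on when sterols are low, went from 291 to 315 CPM to 218 to 243 (-0.38 ± 0.06, adjusted p = 0.000289). The call on Srebf2 was lost with the library set as a term (adjusted p = 0.0843), while Cyp51, Hmgcs1, Mvd and Dhcr7 were called there (adjusted p = 0.016, 0.00668, 0.00626 and 0.00626). Ebp, Pmvk, Hsd17b7, Insig1, Stard4 and Lss were among those not called.

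**Figure D2:**
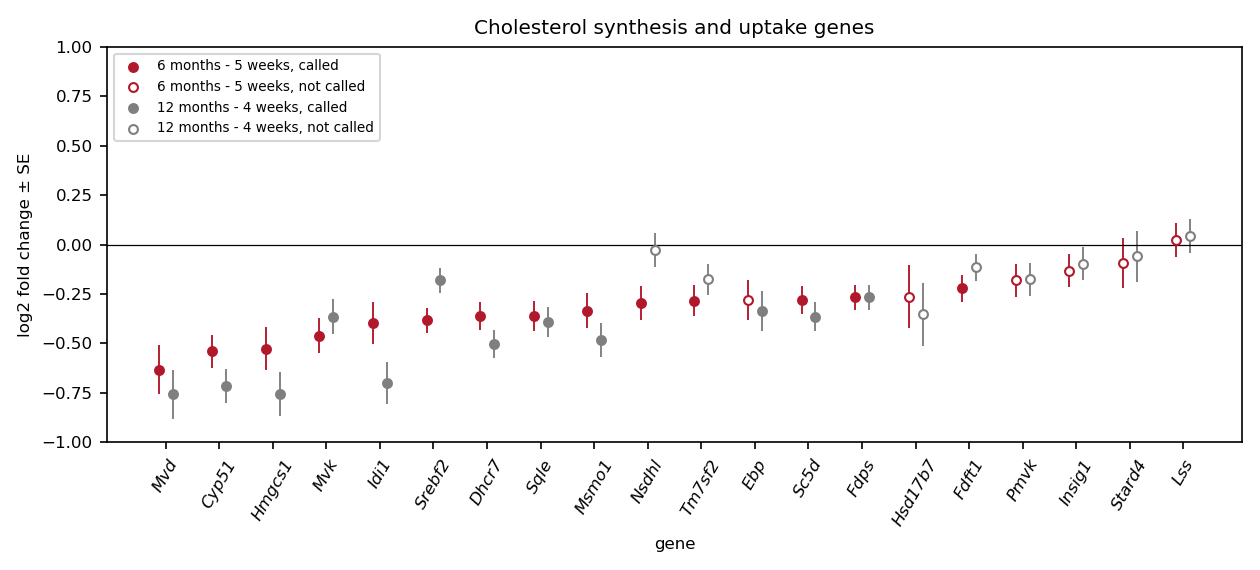
Log2 fold change ± SE of 20 cholesterol genes, 6 months minus 5 weeks (red) and, from other libraries, 12 months minus 4 weeks (grey); filled points were called. Nearly all points lie below 0: 14 red points are filled, and Lss lies above 0 in both.

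The starts of these genes are shown because Srebf2 protein is known to act at sterol regulatory elements beside sites of NF-Y, a factor that binds CCAAT. Of the 24 genes, 16 had a start in the RefSeq promoter table (GRCm38.p6), and in each of the 16 the 250 bases before at least 1 listed start held CCAAT on one strand or the other. CCAAT was in 33.8% of all 32851 promoter windows of that length and in 34.6% of those of tested genes. These shares count windows, while the 16 counts genes: Dhcr7 and Pmvk also had windows at other starts without CCAAT. The motif did not part the called from the uncalled members, since both the 11 called and the other 5 held it. TCACNCCA, a short form of the sterol element, was in 3 of the 16 (Hmgcs1, Msmo1 and Srebf2) and in 3.67% of all windows. Both strands were searched. The motifs share the letters CCA, so 1 stretch could count under both, but no matches overlapped in these 3 windows. The windows of Hmgcs1, Srebf2, Cyp51 and Mvk follow, 5′ to 3′ on the strand of the gene and ending just before the RefSeq start, which can differ from the gene's start given above, with matches in capitals (CCAAT or its reverse ATTGG, and TCACCCCA).
Hmgcs1, chr13:119690101-119690350, plus strand: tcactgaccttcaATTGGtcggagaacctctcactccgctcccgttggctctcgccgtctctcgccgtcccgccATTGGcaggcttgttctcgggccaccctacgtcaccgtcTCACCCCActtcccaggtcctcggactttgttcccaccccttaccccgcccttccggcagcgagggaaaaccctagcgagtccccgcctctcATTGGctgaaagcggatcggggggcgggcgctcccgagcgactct
Srebf2, chr15:82147019-82147268, plus strand: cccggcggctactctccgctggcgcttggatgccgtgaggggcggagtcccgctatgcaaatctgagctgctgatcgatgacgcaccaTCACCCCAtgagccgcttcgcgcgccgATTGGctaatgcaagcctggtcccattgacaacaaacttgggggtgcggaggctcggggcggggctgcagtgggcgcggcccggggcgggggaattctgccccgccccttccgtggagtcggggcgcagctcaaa
Cyp51, chr5:4104698-4104947, minus strand: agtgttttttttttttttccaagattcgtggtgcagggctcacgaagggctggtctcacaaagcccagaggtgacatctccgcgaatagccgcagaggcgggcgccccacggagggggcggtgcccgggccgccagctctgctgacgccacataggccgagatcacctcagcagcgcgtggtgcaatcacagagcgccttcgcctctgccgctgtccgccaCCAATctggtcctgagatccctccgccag
Mvk, chr5:114444019-114444268, plus strand: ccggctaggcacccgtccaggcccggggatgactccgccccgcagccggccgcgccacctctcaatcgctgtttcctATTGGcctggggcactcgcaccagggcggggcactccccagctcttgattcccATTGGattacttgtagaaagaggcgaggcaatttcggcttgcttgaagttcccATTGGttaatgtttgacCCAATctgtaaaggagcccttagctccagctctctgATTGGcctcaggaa
Mvk held 5 matches to CCAAT, Hmgcs1 held 3, and Srebf2 and Cyp51 held 1 each. Hmgcs1 and Srebf2 also held 1 sterol-element match. A match describes these letters only.

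Of 24 genes of immature neurons and growth cones, 9 fell (against 8.39% of all genes), none rose and 15 were not called, with a median log2 change of -0.25. Marcksl1 (chr4:129513581-129515985), an actin-binding protein of growing processes, was at 164, 145, 173 and 165 CPM at 5 weeks and at 98.8, 93 and 85.9 at 6 months (-0.80 ± 0.10, adjusted p = 1.26e-05). Sox4, a transcription factor of newborn neurons, went from 37.6 to 48.8 CPM to 21.5 to 26.1 (-0.88 ± 0.13, adjusted p = 0.000145). The libraries of the ages did not overlap for either gene, as for 2785 genes that were lower, of 16916 tested. The tubulins Tuba1a, Tubb3 and Tubb2b fell by 0.47, 0.40 and 0.47 on the log2 scale, Stmn1, which takes microtubules apart, by 0.43 and Basp1, a growth cone membrane protein, by 0.51. Dcx, the marker of migrating newborn neurons, was not called: 17.6 to 22.3 CPM at 5 weeks and 28.1, 32.2 and 18.9 at 6 months (0.44 ± 0.22, adjusted p = 0.186). Sox11 (-0.09 ± 0.12) and Gap43 (-0.19 ± 0.09) were not called either. With the library set as a term 5 of the 24 were called lower, Marcksl1, Tuba1a, Sox4 and Tubb2b among them, while Tubb3 and Stmn1 were not (adjusted p = 0.0692 and 0.162). In the absence of 6-month replicate 34 the change of Tubb2b was -0.40 and not called (adjusted p = 0.064). Of 25 genes of the cell cycle, Top2a and Ube2c alone were called, both lower and both at low levels, Ube2c not without replicate 34 (adjusted p = 0.103) or with the set term (adjusted p = 0.0847): Top2a was at 1.21 to 2.29 CPM and then at 0.654 to 0.95.

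**Figure D3:**
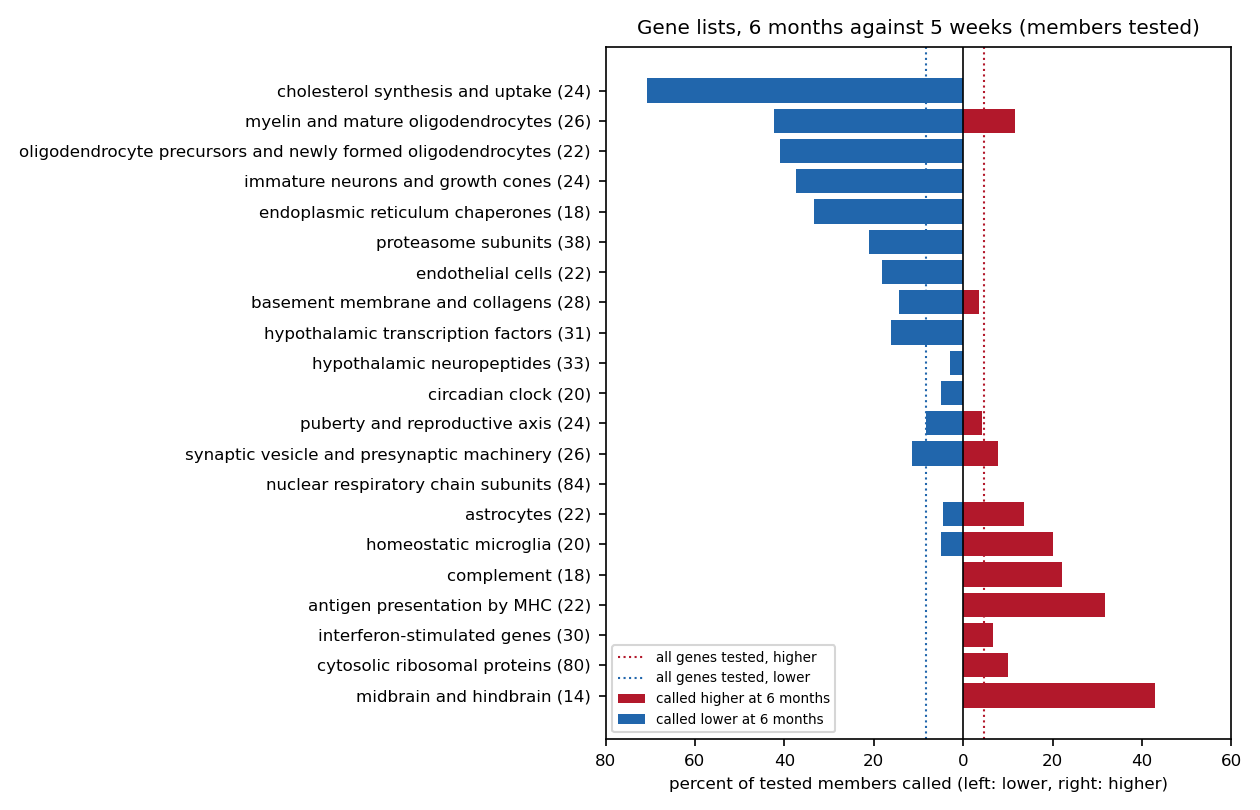
Percent of the tested members of 21 gene lists called lower (blue, left) or higher (red, right) at 6 months, with the number tested after each name; dotted lines mark the 8.39% and 4.58% of all genes tested. Cholesterol, oligodendrocyte and immature neuron lists reach furthest left, and the midbrain and hindbrain list, which rests on replicate 34, furthest right.

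Immune genes rose in part. Of 22 genes of antigen presentation by MHC, 7 rose and none fell, with a median log2 change of 0.43, against 4.58% of all genes called higher. H2-T22 (chr17:36037128-36042747), a non-classical class I gene, was at 16.3, 15.1, 15.6 and 16.3 CPM at 5 weeks and at 22.1, 20.5 and 19.7 at 6 months (0.39 ± 0.08, adjusted p = 0.00238). The others called were H2-Q4, H2-Q6, H2-Q7, H2-M3, Tap2 and Nlrc5, the last at 0.389 to 0.736 and then 1.15 to 1.61 CPM, a call lost without any 1 of the 7 libraries. Reads of these near-identical H2 copies can be shared out by the counting, so single H2-Q values are uncertain. B2m, the common light chain, was at 72.5 CPM and then 92.2 on average and was not called (0.35 ± 0.12, adjusted p = 0.065). The count was 4 without 6-month replicate 34, 3 against 4-week replicates 1 and 2, 7 against replicates 3 and 4, and 0 with the library set as a term.

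C4b (chr17:34728380-34743882), the complement protein C4, rose from 14.1, 12.6, 18.9 and 14.2 CPM to 48.1, 31.5 and 35.6 (1.36 ± 0.29, adjusted p = 0.00402). It was called with the library set as a term (adjusted p = 0.0436), and its near copy C4a, makes its share of reads uncertain. Of 18 complement genes 4 rose (4.58% over all genes) and none fell: C4b, Cfb, C3 and Itgam. The call on C3 was lost without any 1 of the 5-week libraries, without 6-month replicate 32 or 33 and with the set as a term (adjusted p = 0.231). Cfb, factor B of the alternative pathway, went from 3.06 to 3.51 CPM to 4.61 to 5.46 (0.62 ± 0.13). The C1q chains C1qa, C1qb and C1qc changed by 0.32, 0.20 and 0.03 and were not called. Of 20 genes of resting microglia 4 rose and 1 fell, against 4.58% and 8.39% of all genes. Ctss, Siglech, Sall1 and Itgam rose by 0.51, 0.54, 0.31 and 0.47, and Fcrls fell by 0.38. In the fit with the set term Ctss alone of these 5 was called (adjusted p = 0.00813), and Siglech, Sall1, Itgam and Fcrls were not (adjusted p = 0.231, 0.277, 0.364 and 0.421). Cx3cr1, the fractalkine receptor, missed the threshold (0.30 ± 0.10, adjusted p = 0.0569), and Tmem119 changed by -0.08 ± 0.14. Among 30 interferon-stimulated genes 2 rose, near the 4.58% of all genes called higher. Xaf1 (chr11:72301629-72313733), a pro-apoptotic protein, went from 2.08 to 2.92 CPM to 5.6 to 6.25 (1.21 ± 0.16, adjusted p = 4.09e-05). Oasl2 rose by 0.73, a call lost with the set as a term (adjusted p = 0.254) and without 5-week replicate 1, 2 or 4 or 6-month replicate 33 or 34 in turn. Gfap, the astrocyte filament, was at 268 to 347 CPM and then 383, 202 and 281, with no call (-0.05 ± 0.33, adjusted p = 0.938).

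Among the other genes that rose was Fbxw15 (chr9:109552602-109568262), an F-box protein gene in a cluster of related copies, which were not told apart here. It was at 0.856, 1.08, 1.01 and 0.752 CPM at 5 weeks and at 5.38, 6.45 and 5.46 at 6 months (2.63 ± 0.29, adjusted p = 3.07e-06). Abca8a (chr11:110025634-110095978), a lipid transporter of the ABC family, went from 4.98 to 6.61 CPM to 27.6, 22.5 and 26.7 (2.19 ± 0.21, adjusted p = 8.11e-07). Both rose about as much in each 6-month library. Xdh (chr17:73883895-73950196), xanthine dehydrogenase of purine breakdown, went from 2.05 to 3.14 CPM to 7.4, 8.46 and 13.7 (1.99 ± 0.26), highest in replicate 34. Neat1 (chr19:5824708-5845478), the long RNA that scaffolds nuclear paraspeckles, was at 47.8, 46.4, 45.2 and 41.3 CPM at 5 weeks and at 189, 174 and 188 at 6 months (2.02 ± 0.24, adjusted p = 1.63e-05).

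Of other long non-coding RNAs, chosen after their values were seen, none of the next 3 passed the test. Meg3 averaged 1390 CPM and then 3029 (1.12 ± 0.38, adjusted p = 0.0536) and Snhg11 656 and then 1443 (1.14 ± 0.38, adjusted p = 0.0519), while Malat1 averaged 438 and 354 (-0.31 ± 0.32, adjusted p = 0.573). Of 297 lincRNA genes tested, 22 were called higher and 4 lower, against 683 and 1359 of 15348 protein-coding genes. Reads outside annotated genes made up 6.43 to 7.07% of the 5-week libraries and 8.01 to 9.87% of the 6-month ones, and their part in these changes was not tested. Cdr1, at 7.55 to 8.33 CPM and then 12.8, 23.6 and 16.9 (1.16 ± 0.28, adjusted p = 0.0088), was not called with the library set as a term (adjusted p = 0.296). The counts do not part its linear from its circular RNA.

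Glp1r (chr17:30901817-30940791), the receptor of the satiety hormone GLP-1, was at 2.41, 1.76, 2.71 and 2.97 CPM at 5 weeks and at 7.68, 6.85 and 3.63 at 6 months (1.30 ± 0.30, adjusted p = 0.006). Replicate 34 lay nearest to the 5-week values. Against 4-week replicates 3 and 4 the rise was not called, and at 12, 18 and 24 months Glp1r averaged 3.61, 4.11 and 3.74 CPM. Of 33 receptors for peptides and hormones 4 rose and 3 fell, against 4.58% and 8.39% of all genes, the falls near that share. The somatostatin receptors Sstr1 and Sstr2 fell by 0.41 and 0.66 (Sstr2 not without replicate 32 or 34), and Thrb, a thyroid hormone receptor, rose by 0.54. Under the set term Sstr1, Sstr2 and Thrb were not called (adjusted p = 0.583, 0.464 and 0.0792), while Glp1r was (adjusted p = 0.00888).

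Of 24 genes of the pubertal axis, 1 rose and 2 fell (Mkrn3 and Hs6st1), near the shares of all genes. The call on Hs6st1 was lost with the set as a term (adjusted p = 0.086). Mkrn3, a maternally imprinted gene known as a brake on puberty, was at 2.02, 2.77, 2.56 and 3.08 CPM at 5 weeks and at 1.2, 1.58 and 1.47 at 6 months (-0.89 ± 0.23, adjusted p = 0.0119). The ages did not overlap, as for 2785 genes that were lower, of 16916 tested. The call held with the library set as a term (adjusted p = 0.0305) and was lost without 6-month replicate 32. Kiss1, which drives the release of gonadotropin-releasing hormone, was at 0.411 to 0.736 and 0.393 to 0.85 CPM (0.04 ± 0.49, adjusted p = 0.967). Gnrh1, the gene of that hormone, was at 0.785 to 2.51 and 0.687 to 3.25 CPM (0.43 ± 0.57, adjusted p = 0.664). The oestrogen receptor gene Esr1 changed by 0.06 ± 0.20. At SEs of 0.49 and 0.57 a change of 2-fold in Kiss1 or Gnrh1 was not detectable.

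Neuropeptide genes were mostly lower at 6 months without passing the test. Of 33 tested, Bdnf alone was called, lower (not with the set term, adjusted p = 0.121), with a median log2 change of -0.37. The list summed to 1680, 1220, 1580 and 1300 CPM at 5 weeks and to 1220, 1090 and 910 at 6 months, so the ages met at 1220. Avp, vasopressin, was at 351, 230, 372 and 241 CPM and then at 263, 166 and 137 (-0.66 ± 0.50, adjusted p = 0.409). Oxt, oxytocin, was at 102 to 220 and 70.1 to 132 CPM (-0.77 ± 0.42, adjusted p = 0.238), and Hcrt, orexin, at 110 to 183 and 70.3 to 86.2 (-0.77 ± 0.50, adjusted p = 0.326). Trh, which encodes thyrotropin-releasing hormone, was at 60.7 to 91 and then 36.2 to 57.9 CPM (-0.77 ± 0.28, adjusted p = 0.0706). The feeding peptides Pomc, Agrp and Npy changed by -0.34 ± 0.37, -0.69 ± 0.32 and -0.33 ± 0.29, none of them called. The 12-month libraries, at 1350 to 2210 CPM for the list, lay above all of the 6-month libraries.

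Transcription factors that pattern the hypothalamus were lower in 5 of 31 cases (8.39% over all genes) and higher in none (median -0.25). Otp, needed for the neurosecretory neurons, went from 34.9, 21.2, 39.5 and 26.7 CPM to 9.53, 14.5 and 15.4 (-1.22 ± 0.33, adjusted p = 0.0174), and Nkx2-4 from 3.25 to 5.97 CPM to 1.45 to 1.74 (-1.53 ± 0.31). No member was called with the library set as a term, and 3 were lower against 4-week replicates 1 and 2. Otp was called against neither 4-week replicates 1 and 2 nor 3 and 4 (adjusted p = 0.286 and 0.0717). Its call was also lost without 5-week replicate 3 or 6-month replicate 32. Of 20 clock genes Nfil3, a repressor of the clock's output, was the 1 called (-0.46 ± 0.12), at the shared time of day of the labels, and not with the set as a term (adjusted p = 0.426). Nr1d1, Per1 and Arntl changed by -0.09, 0.05 and -0.08 and were not called, but under the set term Per1 (0.77, adjusted p = 0.0394) and Per2 (1.15, adjusted p = 0.00192) were called higher. Per2 also differed between the pairs of 4-week libraries (0.89, replicates 3 and 4 minus 1 and 2, adjusted p = 0.0103), and Per1 by 0.72 (adjusted p = 0.0603). Against 4-week replicates 3 and 4, Per1 and Per2 changed by -0.31 and -0.07 and were not called.

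Markers of neighbouring regions differed between single 6-month libraries. All 22 markers of midbrain and hindbrain were highest in replicate 34 among the 7 libraries, and they summed to 128 CPM there against 28.3 to 35.4 in the others. Hoxa2, Hoxa3, Hoxb2 and Hoxc4 had no count in any 5-week library. Tph2, the serotonin-making enzyme of the raphe, was at 0.486 to 0.584 CPM at 5 weeks and at 1.43, 0.56 and 24.7 at 6 months. It was called higher with Fev, Hoxb3, Slc6a5, Gata3 and Tfap2b (6 of 14 tested, against 4.58% of all genes). Without replicate 34, 0 of 13 were called, where 516 genes, or 3.05% of those tested, were called higher. Slc6a5, the glycine transporter, changed sign, from 3.51 to -0.49. Syt2, a fast-release synaptotagmin, at 23.2 to 32.2 and then 49.4, 41.5 and 98.7 CPM (1.17 ± 0.27), lost its call without that library (0.70, adjusted p = 0.0839) and with the set as a term (adjusted p = 0.0847). None of the 14 was called with that term.

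Replicate 32 summed to 1240 CPM for striatal markers against 643 to 829 in the other 6 libraries, with 11 of 15 markers highest there, and to 1330 CPM for thalamic markers against 2050 to 2760. Choroid plexus markers summed to 1710 CPM in that library and to 2630 in 5-week replicate 2, against 300 to 376 in the rest. Most of that was Ttr, the thyroid hormone carrier, at 930 and 1430 CPM. None of the 12 choroid plexus genes was called. Of hypothalamic markers, 33 of 34 neuropeptide genes and all 31 transcription factors had a count in at least 1 library of each age, Galp being the exception. The same held for all 18 thalamic, 15 striatal, 18 cortical and hippocampal and 12 choroid plexus markers, so a count alone does not part the regions. The part of these regional differences in the other changes was not tested. The calls on Cldn11, Gpr17, Il33, Neat1, Cyp51 and Marcksl1 held without each 5-week and 6-month library in turn, which leaves at least 1 of these libraries in every fit.

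**Figure D4:**
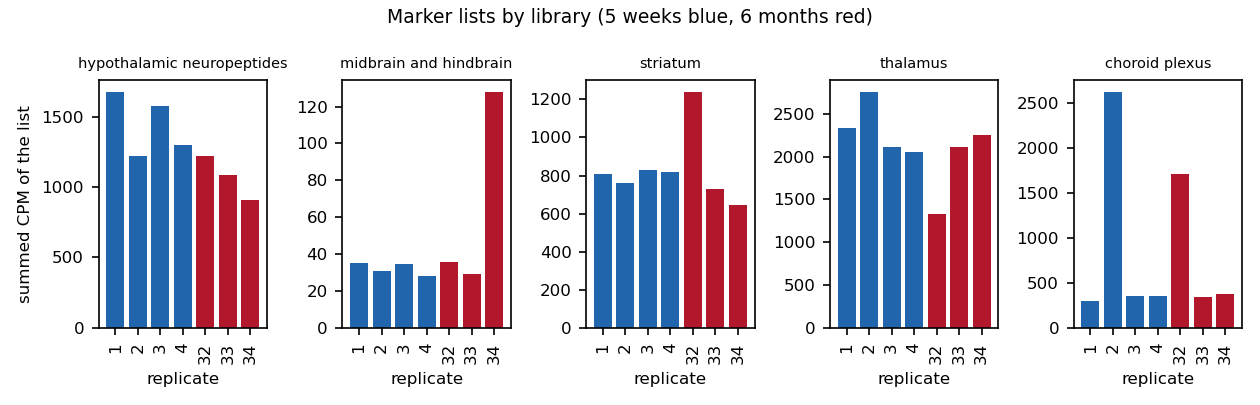
Summed CPM of 5 marker lists in the 4 libraries of 5 weeks (blue) and the 3 of 6 months (red). Replicate 34 stands alone for midbrain and hindbrain (128), replicate 32 for striatum (1240), and 5-week replicate 2 and replicate 32 for choroid plexus (2630 and 1710).

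Of 22 endothelial genes 4 fell (8.39% over all genes) and none rose: Mfsd2a, the lipid carrier of the blood-brain barrier, by 0.60, Cldn5, its tight-junction protein, by 0.59, and Tie1 and Sox17 by 0.45 and 0.53. Once the set was a term Cldn5 was called (adjusted p = 0.000874), and Mfsd2a, Tie1 and Sox17 were not (adjusted p = 0.718, 0.0949 and 0.354). Cldn5 was at the threshold (adjusted p = 0.0499) and also differed between the pairs of 4-week libraries (-0.86, replicates 3 and 4 minus 1 and 2, adjusted p = 0.0432). Of 28 basement membrane and collagen genes 4 fell, against 8.39% of all genes, and Col6a3 rose (1.57), a call lost with the set as a term (adjusted p = 0.0743). Col3a1, a fibrillar collagen of vessel walls and meninges, was at 7.28, 15.3, 11.9 and 7.48 CPM at 5 weeks and at 1.65, 1.65 and 5.07 at 6 months (-1.93 ± 0.45, adjusted p = 0.00744). Its call was lost without replicate 32 and with the library set as a term. Nid1, which links laminin to collagen, went from 19.6 to 26.2 CPM to 9.74 to 14.5 (-0.91 ± 0.17, adjusted p = 0.000991) and kept its call under both.

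Of 18 chaperones of the endoplasmic reticulum 6 were called lower, of 38 proteasome subunits 8 and of 18 heat shock proteins 2, with none higher, against 8.39% of all genes called lower. Manf, a secreted stress protein of that compartment, went from 60.1 to 69.3 CPM to 43.3 to 48.5 (-0.52 ± 0.09). In the fit with the set no chaperone was called, and Hspa5, the master chaperone, went from -0.28 to 0.04. Of 80 cytosolic ribosomal protein genes 8 rose (median 0.12), against 4.58% of all genes, and none of them was called with the set as a term. None of 84 nuclear respiratory chain genes was called by edgeR. Of 26 synaptic genes 2 rose and 3 fell, near the 4.58% and 8.39% of all genes. Stx1a, a syntaxin of vesicle fusion, fell from 89.7 to 113 CPM to 41.7 to 56.4 (adjusted p = 0.000317), while Snap25, its partner, changed by 0.36 ± 0.12 (adjusted p = 0.0535). Nptxr, a receptor for synaptic pentraxins, fell from 37.5 to 56.4 CPM to 13.5 to 22.6 (-1.24 ± 0.27), a call lost with the set as a term (adjusted p = 0.119).

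Another pair of ages that shares no library with this one, 12 months against 4 weeks, gave 4616 called genes (27.3%), 2289 higher (13.5%) and 2327 lower (13.8%). Of the 2193 genes, 1565 (71.4%) were called there in the same direction, which is 33.9% of the 4616, and 0 in the opposite direction. By direction, 1067 of the 1419 falls and 498 of the 774 rises were shared. The comparisons have a common fit and the same split of title forms. No gene's change differed between the comparisons at an adjusted p below 0.05 in edgeR, where 1266 genes had an unadjusted p below 0.05; DESeq2 called 9. Called under all of the following were 228 genes (54 higher, 174 lower): without each 5-week and 6-month library in turn, against each pair of 4-week libraries, with the library set as a term, and between 12 months and 4 weeks. The 228 hold Gpr17, Rnf122, Bmp4, Fyn and Olig1, the myelin genes Cldn11, Mog, Mal, Tspan2, Cnp, Gal3st1 and Il33, and the cholesterol genes Cyp51, Hmgcs1, Mvd, Dhcr7 and Sqle. They also hold Neat1, C4b, Cfb, Xaf1, Fbxw15, Abca8a, Xdh, Rab7b and Gsn.

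**Figure D5:**
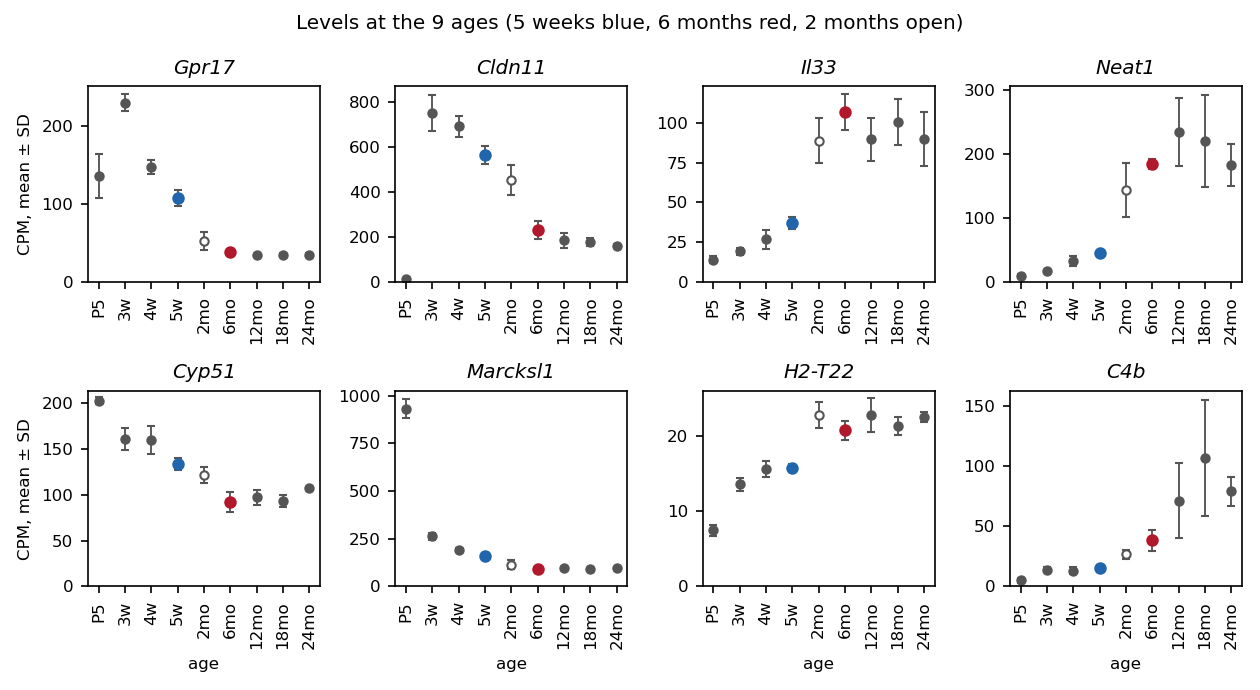
Mean CPM ± SD of 8 genes at the 9 ages (2 to 4 libraries each; 5 weeks blue, 6 months red, 2 months open). The fall of Gpr17 from 107 to 38.1 and of Cldn11 from 562 to 231, and the rise of Il33 from 37.2 to 107, follow on from 147, 690 and 26.7 at 4 weeks, while C4b goes on to 107 at 18 months.

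Set against the other ages, the 6-month level of most lead genes was near that of later ages. Gpr17 was at 230 ± 11.1 CPM at 3 weeks (SD, n = 3), 147 ± 8.89 at 4 weeks, 107 ± 10.2 at 5 weeks and 38.1 ± 3.2 at 6 months, and at 33.9 ± 1.44 at 12 months. Il33 was at 19.1, 26.7 and 37.2 CPM at 3, 4 and 5 weeks, at 107 ± 11.1 at 6 months and at 89.7 ± 13.7 at 12 months. Cyp51 was highest at P5, at 203 ± 4.3 CPM, and Marcksl1 was at 932 ± 49.2 there against 162 at 5 weeks. C4b differed from these, at 38.4 ± 8.66 CPM at 6 months and 71.5 ± 31.2 at 12 months. So did Glp1r and Syt2, which were lower again at the later ages. Glp1r averaged 2.46 CPM at 5 weeks, 6.05 at 6 months and 3.61, 4.11 and 3.74 at 12, 18 and 24 months. Syt2 averaged 28, 63.2, 34.9, 34.5 and 24.8 CPM at the same ages. The 2-month libraries lie between in time but held neuropeptide genes at 735 to 858 CPM in sum. This was below each library of 5 weeks and 6 months. They were on neither side of the comparison but were in the fit that gave the shared spread. Without them 2896 of 16890 genes tested were called.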

How the data were processed

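RNA-seq counts of 28 of 29 libraries of 9 ages, labelled hypothalamus, were used. The deposited files hold raw counts of reads per gene, made by the authors with HISAT2 2.1.0 and HTSeq 0.9.1 on GRCm38 (mm10), per the submitters' processing notes; which annotation and strand setting were used is not given in the sources used here. Overlapping and antisense genes are therefore uncertain. The 5 summary lines of HTSeq, 28.9 to 32.3% of each total in the 7 libraries compared, were left out. One 24-month library (2377580 counts in 1385 genes) was left out. Genes were tested with edgeR 4.0.16 (R 4.3.3): filterByExpr, TMM scaling, 1 mean per age, a quasi-likelihood test (two-sided) over 28 libraries that share 1 estimate of spread, and Benjamini-Hochberg adjustment over 16916 genes, called below 0.05. Every adjusted p in the text is from edgeR. Log2 fold changes are those of the edgeR fit at its default prior count. At these depths 3 counts are 0.0754 to 0.114 CPM, which covers counting error only.

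Named genes were the 10 highest and 10 lowest called changes whose libraries did not overlap and whose higher age averaged 5 CPM or more (passing over Gm-number, Rik and -ps symbols), up to 6 called members of each list, and a set panel of 53; other list members were named after their values were seen. The members and the 54 lists were chosen with earlier results of these data known. Gene positions are from GENCODE M21 (GRCm38) and promoter windows from RefSeq (GRCm38.p6). Alternatives were DESeq2 1.42.0, other scalings and filters, each library left out, all 29 libraries, fewer ages, the library set as a term and 4-week libraries in place of 5-week ones. The labels say no more than that the libraries are separate samples, so p-values measure the spread between libraries. The test was checked on simulated data. Some members of the lists are counted but not reported by name here.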

Additional observations from a re-analysis of the deposited data

Results flagged for a closer look

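In the 4 libraries of 5 weeks, 69 genes were looked at for 1 library far from the other 3, and 4 had one. Chance flags about 1 in 20 groups. Ttr, the thyroid hormone carrier of the choroid plexus, was at 1430 CPM in replicate 2 and at 4.2 to 8.33 in the others. Lepr, the leptin receptor, was at 7.36 CPM in the same library against 3.11 to 3.81. Slc6a4, the serotonin transporter, was at 0.271 CPM in replicate 3 against 0.0389 to 0.0747, and Cst7, a cystatin of activated microglia, at 0.0389 CPM in replicate 1 against 0.143 to 0.155; both are a few counts. Groups of 3, such as the 6-month libraries, are too small for this rule.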

How the results depend on the processing

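No paired analysis was possible because the 6-month libraries (32 to 34) and the 5-week libraries (1 to 4) share no replicate number. With all 29 libraries, the sparse 24-month one included, 0 genes were called between 6 months and 5 weeks (190 at an unadjusted p below 0.05), 6 between 12 months and 4 weeks and 0 in both. With the library set as a term 426 were called between 6 months and 5 weeks. Fitted on the 7 libraries compared alone, 3076 of 15850 genes were called (1290 higher, 1786 lower). Without the 2-month libraries 2896 of 16890 were called (1120 higher, 1776 lower). Leaving out 1 library at a time gave 1292 to 2347 genes for 6 months against 5 weeks, 3046 to 4571 for 12 months against 4 weeks, 973 to 1630 called in both, and 0 to 2 whose change differed between them. The first count fell furthest without 6-month replicate 33 (1292), replicate 32 (1349) and 5-week replicates 3 (1351) and 1 (1417), the second without 12-month replicate 26 and the third without 6-month replicate 33. DESeq2 called 9 genes for the difference, and 2670 for 6 months against 5 weeks. The sign turned for Hspa5 (0.04) and Dnajb1 (0.18) with the set as a term, for Slc6a5 (-0.49, up to 4.17 with other libraries left out) without replicate 34, for Mc4r (-0.6) against 4-week replicates 3 and 4, and for Nr1d1 (0.39), Dbp (0.77) and Bpifa2 (-11.45) against replicates 1 and 2; beyond the libraries each leaves out or swaps, the cause was not tested. Over the settings run on named genes, 696 values lost the call and 36 gained one. Depth limits the genes of lowest level: a count of 3 is 0.0754 to 0.114 CPM, close to the levels of several region markers.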
